A study of Mus musculus with 6 samples.

Results

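The genes of 6 ligands of the tumour necrosis factor (TNF) superfamily were followed in liver ILC1 of leukaemic and healthy mice: Tnf, Lta, Ltb, Tnfsf10, Fasl and Tnfsf14. They were chosen by symbol from a table of read counts, where they are 6 of 24091 genes, and all 6 passed the filter on low counts that left 12469 genes for testing. ILC1 are tissue-resident innate lymphocytes that share the transcription factor T-bet and the production of interferon gamma with natural killer cells. The AML group comprised 3 libraries, called AML 1 to 3, from C57BL/6 mice given C1498 cells into a vein, C1498 being a transplantable acute myeloid leukaemia line of this strain. The healthy group comprised 3 libraries, healthy 1 to 3, from C57BL/6 mice without C1498 cells, and in both groups ILC1 were taken from the liver at day 14. The labels give neither the gate or sort used for ILC1 nor the sex of the mice, and they do not say whether a library came from 1 mouse or several, so a p-value here reflects only how much the libraries differed, and part of that may be technical. The design text names the regulatory pathways of ILC1 in AML as the question.

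TNF superfamily ligands are made as membrane proteins that assemble into trimers and bind receptors of the matching TNF receptor superfamily on other cells. Fas ligand (Fasl) and TRAIL (Tnfsf10) bind receptors with death domains and are known as killing molecules of lymphocytes; TRAIL is a classical product of liver ILC1. TNF acts through Tnfrsf1a and Tnfrsf1b and is released from the surface by the protease ADAM17. Lymphotoxin alpha (Lta) is secreted as a homotrimer that binds the TNF receptors, or joins lymphotoxin beta (Ltb) in a membrane complex that binds the lymphotoxin beta receptor, Ltbr. LIGHT (Tnfsf14) binds Ltbr and HVEM (Tnfrsf14).

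Tnf, Lta and Ltb are neighbours on chromosome 17. In mm10 coordinates Ltb occupies 35194507 to 35196305 on the plus strand, Tnf 35199367 to 35202007 on the minus strand and Lta 35203165 to 35205351 on the minus strand. The gap between Ltb and Tnf is 3062 bases and that between Tnf and Lta is 1158 bases. Tnfsf14 lies farther along the same chromosome, at 57189474 to 57194181 on the minus strand. Fasl lies on chromosome 1 at 161780692 to 161788495 on the minus strand, and Tnfsf10 on chromosome 3 at 27317077 to 27342232 on the plus strand. The annotation places no antisense gene over any of the 6. The miRNA genes Mir6974 and Mir6973a lie inside Lta and Ltb on the same strand.

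The 200 bases before the gene start are shown for Tnf and Ltb, neighbouring genes of which the first varied widely among healthy libraries and the second hardly varied, and for Tnfsf14, which had a higher mean in AML. They are from RefSeq GRCm38.p6, read 5′ to 3′ on the strand of the gene, at chr17:35202008-35202207 for Tnf, chr17:35194307-35194506 for Ltb and chr17:57194182-57194381 for Tnfsf14. Capitals mark a TATAAA box in Tnf, a match to the NF-kB consensus in Ltb and an AP-1 match in Tnfsf14.
Tnf: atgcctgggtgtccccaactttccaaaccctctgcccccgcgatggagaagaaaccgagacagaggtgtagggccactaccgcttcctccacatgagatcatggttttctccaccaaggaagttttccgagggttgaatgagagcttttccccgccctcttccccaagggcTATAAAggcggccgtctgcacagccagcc
Ltb: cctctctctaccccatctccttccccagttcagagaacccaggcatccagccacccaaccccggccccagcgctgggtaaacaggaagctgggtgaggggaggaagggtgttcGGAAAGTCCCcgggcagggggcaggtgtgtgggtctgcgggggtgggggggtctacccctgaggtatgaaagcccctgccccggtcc
Tnfsf14: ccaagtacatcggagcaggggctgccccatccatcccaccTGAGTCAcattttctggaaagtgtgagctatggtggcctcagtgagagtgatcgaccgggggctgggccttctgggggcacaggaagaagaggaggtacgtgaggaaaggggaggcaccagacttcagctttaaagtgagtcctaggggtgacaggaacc
The TATAAA of Tnf starts at position -29 and that of Lta at -167, counted from the gene start. The stretch before Lta lies inside a longer RefSeq gene model and is not shown. TATAAA was found on either strand in 14.2% of 27025 promoter windows of 300 bases (250 before the start and 50 after it). The NF-kB match of Ltb starts at -87, and such a match was present in 8.18% of windows; it overlaps a match to the NFAT core GGAAA, which was present in 61.3% of windows and in those of all 6 genes. The AP-1 motif TGANTCA, found in Tnfsf14 at -160, was present in 7.93% of windows. The T-box motif TCACACC, at 3.96% of windows, and the interferon response motif, a pair of GAAA separated by 2 bases, at 3.49%, had no match in the 6 windows.

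The messenger RNAs of TNF and lymphotoxin alpha are known to be short-lived through AU-rich elements in the 3′ untranslated region, and these differ among the 6 genes. The 30 bases with the densest such stretch of Tnf, at chr17:35199682-35199711, and of Lta, at chr17:35203389-35203418, are shown from GRCm38 on the minus strand, with ATTTA pentamers in capitals.
Tnf: cttattATTTAttATTTATTTAttATTTAt
Lta: taagttATTTATTTAtagagaatagaaaga
In the GENCODE annotation, Tnf held 8 ATTTA pentamers and 5 copies of the nonamer TTATTTATT (overlaps counted) in 764 bases of 3′ untranslated region, and Lta held 3 pentamers and 1 nonamer in 572 bases. Among 20489 genes, 6.97% held a nonamer and 1.64% held at least 2. Tnfsf10 held 8 pentamers and no nonamer in 3998 bases, Fasl and Tnfsf14 held 1 pentamer each, and Ltb held none in 156 bases.

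The libraries were deep and of similar size, at 45135093 to 51284691 counts, and markers of other cell types were detected in them. The summed level of 9 ILC1 markers was 5308 to 5941 CPM in AML and 5559 to 5781 CPM in healthy libraries, where CPM are read counts scaled to a common library total. Ncr1 and Klrb1c, at means of 1604 and 1538 CPM, made up the largest part. Of the 9, 7 had a higher and 2 a lower mean in AML. Cxcr6, with the smallest p, was lower (log2 fold change -0.32 ± 0.10, unadjusted p 0.0151, adjusted p 0.478 by edgeR). Sums were 119 to 190 CPM in AML and 24.4 to 84.3 CPM in healthy for 10 macrophage and Kupffer cell markers, with 8 of 8 tested at a higher mean in AML. They were 367 to 660 CPM in AML and 106 to 202 CPM in healthy for 10 dendritic cell markers, with 10 of 10 tested at a higher mean in AML. For 10 neutrophil and monocyte markers they were 522 to 682 CPM in AML and 41.7 to 538 CPM in healthy, mostly Lyz2, which had 503, 567 and 434 CPM in AML 1 to 3 and 459, 35.03 and 33.1 CPM in healthy 1 to 3, with 8 of 8 tested at a higher mean in AML and a median log2 fold change of 1.81. With all libraries no marker of these lists passed the adjusted threshold by the quasi-likelihood test of edgeR. DESeq2 then called 1 of 8 neutrophil and monocyte, 4 of 8 macrophage and 6 of 10 dendritic cell markers, beside 1.15% of all tested genes. The likelihood ratio test of edgeR called 0, 3 and 6, beside 0.802%, and each called marker had the higher mean in AML. Without healthy 1, 3 of 8 tested neutrophil and monocyte markers, 2 of 9 macrophage markers and 4 of 10 dendritic cell markers passed the adjusted threshold of edgeR, all with the higher mean in AML, among them Lyz2 at a log2 fold change of 3.88 (adjusted p 0.000401) and Cd74 at 2.34 (adjusted p 0.0199). Without AML 1 and healthy 1, 5 of 7, 5 of 9 and 7 of 10 tested markers of these lists passed. The sums overlapped between groups for conventional NK cell markers (132 to 319 CPM in AML, 164 to 242 CPM in healthy; Klra4 at 0), T cell markers (92.1 to 149 CPM in AML, 99.3 to 125 CPM in healthy), B cell markers (5.74 to 6.66 CPM in AML, 5.61 to 7.82 CPM in healthy; Pax5 at 0), hepatocyte markers (1.13 to 1.42 CPM in AML, 0.871 to 5.13 CPM in healthy), endothelial markers (96.4 to 116 CPM in AML, 91.1 to 126 CPM in healthy, mostly Pecam1; Lyve1 and Emcn at 0) and ILC2 and ILC3 markers (186 to 207 CPM in AML, 196 to 217 CPM in healthy, mostly Gata3; Il5, Il17a and Il22 at 0). In these lists no marker passed with all libraries, while markers that passed without AML 1 and healthy 1 included Zeb2 at 2.16 (adjusted p 0.0158) of the NK cell list and Cd28 at -1.09 (adjusted p 0.00125) of the T cell list. AML 1 stood farthest from its nearest library, and healthy 1 carried far more Lyz2 than the other healthy libraries, so calls that changed without them are given beside the genes concerned. Leaving out AML 1 moved the count of genes past the adjusted threshold to 147 (1.15% of those tested), leaving out healthy 1 to 89 (0.697%) and leaving out both to 444 (3.54%). In bulk samples such as these, fewer cells of a type and less RNA per cell cannot be told apart.

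The libraries of liver ILC1 held RNA of all 6 ligands, at levels that spanned a wide range and kept the same order in each of the 6 libraries. Levels of different genes are compared as CPM per kilobase of gene length. Ltb was first, with 345, 385 and 344 CPM per kilobase in AML and 338, 342 and 361 in healthy libraries, so that 1.13% of the tested genes lay above its mean. Fasl followed with 256, 143 and 126 CPM per kilobase in AML and 183, 207 and 175 in healthy libraries. Tnfsf10 had 59.7, 69.8 and 58.0 CPM per kilobase in AML and 64.6, 62.2 and 63.4 in healthy libraries. Ltb, Fasl and Tnfsf10 were each above Tnf and Tnfsf14 in each of the 6 libraries.

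Tnf reached 27.2, 25.7 and 27.1 CPM per kilobase in AML and 15.6, 33.4 and 43.6 in healthy libraries. Tnfsf14 had 14.9, 20.2 and 23.4 CPM per kilobase in AML and 11.3, 12.96 and 16.2 in healthy libraries. Lta was last, with 4.95, 3.93 and 5.66 CPM per kilobase in AML and 2.26, 3.22 and 2.85 in healthy libraries, and 63.7% of the tested genes lay above its mean. Of the 5 pairs of neighbours in this order, only Tnf and Tnfsf14 overlapped in their ranges over libraries, although Tnf was the higher of the pair within each of the 6 libraries. The per-library values in the authors' deposited table gave the same order for 6 of 6 genes.

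**Figure D1:**
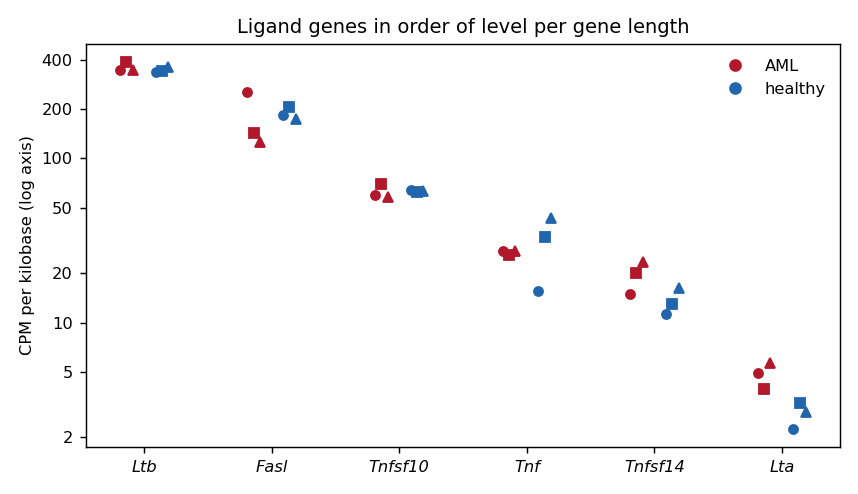
Level of each ligand gene in CPM per kilobase of gene length (log axis) in the 3 AML libraries (red, left of each pair) and the 3 healthy libraries (blue); circles, squares and triangles are replicates 1, 2 and 3. Ltb lies above the other genes in each library and Lta below them, and the ranges of Tnf and Tnfsf14 overlap.

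The summed level of the 6 genes was 647 ± 61.8 CPM per kilobase in AML and 646 ± 27.4 in healthy libraries (SD, n = 3 each). Ltb made up 55.7 ± 5.99% of that sum in AML and 53.8 ± 1.75% in healthy libraries, and Fasl 26.6 ± 8.25% in AML and 29.2 ± 2.53% in healthy libraries. Lta contributed 0.758 ± 0.188% in AML and 0.429 ± 0.0595% in healthy libraries. Per kilobase there were 76.2 ± 19.5 units of Ltb for each of Lta in AML and 127 ± 21.5 in healthy libraries. The lymphotoxin membrane complex contains both chains; the RNA of Lta was thus the scarcer of the pair in each of the 6 libraries.

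No ligand gene passed the adjusted threshold between AML and healthy libraries. This was also true of every other gene, with 0 of 12469 called (0%) and a smallest adjusted p of 0.0764 by the quasi-likelihood test of edgeR. At an unadjusted p under 0.05, 1102 genes (8.84%) were counted by this test; DESeq2 called 143 genes (1.15%) and the likelihood ratio test of edgeR 100 genes (0.802%) after adjustment, none of the 6 among them. Of the 6 ligands, 3 had a higher and 3 a lower mean in AML, with a median log2 fold change of 0.01, beside 0.01 over all genes tested and 52% of genes with a positive fold change. Lta and Tnfsf14 had an unadjusted p under 0.05, both with the higher mean in AML, a direction in which 5.08% of tested genes had such a p. None of the 6 had such a p with the lower mean in AML, as 3.75% of tested genes did.

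**Figure D2:**
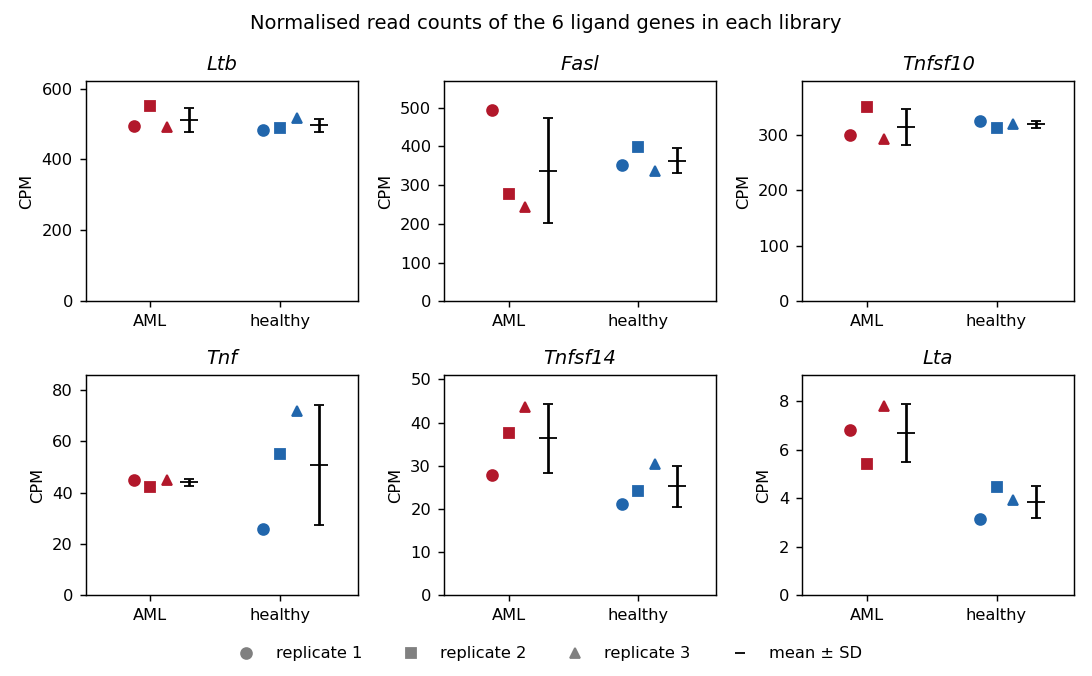
Normalised read counts (CPM, axes from 0) of each ligand gene in the 3 AML libraries (red) and the 3 healthy libraries (blue), with the mean and SD in black. The Lta points of AML lie above those of healthy libraries, while the groups overlap for the other 5 genes; Tnf is spread in healthy libraries and Fasl in AML libraries.

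Lta, the soluble partner of the lymphotoxin complex, had the largest fold change of the 6. It was counted 319, 283 and 371 times in AML 1 to 3, or 6.82, 5.42 and 7.80 CPM, and 154, 221 and 189 times in healthy 1 to 3, or 3.12, 4.44 and 3.93 CPM. Each AML library was above each healthy library; over all tested genes the groups did not overlap in 15.5%, and AML lay above healthy in 8.2% and below in 7.34%. The mean was 6.68 ± 1.20 CPM in AML and 3.83 ± 0.667 CPM in healthy libraries (SD, n = 3 each). This is a log2 difference of 0.80 ± 0.25 (SE), with a 95% interval of 0.22 to 1.38. The edgeR quasi-likelihood test gave an unadjusted p of 0.0129 and an adjusted p of 0.469, so the difference did not pass. Its adjusted p ranged from 0.177 to 0.816 over 17 alternatives, each with a higher mean in AML. With Lyz2 as a covariate the log2 fold change of Lta was 1.13 ± 0.37 (SE; unadjusted p 0.0181, adjusted p 0.645 by edgeR). Macrophage and dendritic cell markers also had higher sums in AML, and their part in the result was not tested.

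Tnfsf14, which encodes LIGHT, was at 27.8, 37.6 and 43.7 CPM in AML 1 to 3 and 21.1, 24.2 and 30.3 CPM in healthy 1 to 3. The groups overlapped in 1 place, as healthy 3 was above AML 1. The mean was 36.4 ± 8.03 CPM in AML and 25.2 ± 4.67 CPM in healthy libraries (SD, n = 3 each), with a log2 fold change of 0.53 ± 0.19 (SE; interval 0.08 to 0.98). The unadjusted p was 0.0268 and the adjusted p 0.514 by edgeR. It fell short of the threshold in each alternative, with adjusted p from 0.0860 to 0.818. With Lyz2 as a covariate the log2 fold change of Tnfsf14 was 0.81 ± 0.27 (SE; unadjusted p 0.0212, adjusted p 0.645 by edgeR). Its neighbour C3, the complement component and a gene of hepatocytes and macrophages, had 14.5 ± 2.24 CPM in AML and 3.46 ± 5.01 CPM in healthy libraries, and the part of such cells in the Tnfsf14 values was not tested.

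Ltb, the membrane anchor of lymphotoxin, and Tnfsf10, the gene of TRAIL, varied least. Ltb was at 494, 551 and 492 CPM in AML 1 to 3 and 483, 490 and 517 CPM in healthy 1 to 3. These ranges overlapped, and AML 2 was the highest. Its mean was 512 ± 33.6 CPM in AML and 497 ± 18.1 CPM in healthy libraries, a log2 fold change of 0.05 ± 0.08 (interval -0.13 to 0.22; adjusted p 0.855 by edgeR, n = 3 each). Tnfsf10 was at 299, 350 and 291 CPM in AML 1 to 3 and 324, 312 and 318 CPM in healthy 1 to 3. The healthy libraries lay within the range of the AML libraries. Its mean was 314 ± 32.1 CPM in AML and 318 ± 5.96 CPM in healthy libraries, a log2 fold change of -0.02 ± 0.09 (interval -0.22 to 0.18; adjusted p 0.951 by edgeR, n = 3 each). The intervals bound any difference of these genes between the groups more tightly than those of the other 4.

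Fasl, the gene of Fas ligand, differed more among AML libraries than between the groups. It was at 493, 276 and 243 CPM in AML 1 to 3 and 353, 400 and 337 CPM in healthy 1 to 3. AML 1 was above each healthy library, and AML 2 and AML 3 were below each of them. The highest AML library was 2.03 times the lowest, a ratio exceeded by 2.40% of 8345 genes with a mean of at least 10 CPM, against 1.19 in healthy libraries, exceeded by 42.9%. The mean was 338 ± 136 CPM in AML and 363 ± 32.5 CPM in healthy libraries, a log2 fold change of -0.11 ± 0.25 (interval -0.68 to 0.47; adjusted p 0.901 by edgeR, n = 3 each). Leaving out AML 1 gave a log2 value of -0.48 (adjusted p 0.0811). Leaving out AML 1 and healthy 1 gave -0.50 (adjusted p 0.0490), past the threshold, in a fit that called 444 genes. Leaving out AML 2 gave 0.02 and leaving out AML 3 gave 0.08. The call for Fasl thus changed with AML 1 and healthy 1, and its direction with AML 2 or AML 3.

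Tnf, the founding member, had the opposite pattern, with a spread among healthy libraries. It was at 44.8, 42.3 and 44.7 CPM in AML 1 to 3 and 25.7, 55.1 and 71.9 CPM in healthy 1 to 3. The AML libraries lay inside the range of the healthy libraries. The highest AML library was 1.06 times the lowest, while in healthy libraries this ratio was 2.80, exceeded by 0.635% of genes. The mean was 44.0 ± 1.42 CPM in AML and 50.9 ± 23.4 CPM in healthy libraries, a log2 fold change of -0.21 ± 0.32 (interval -0.94 to 0.52; adjusted p 0.837 by edgeR, n = 3 each). Healthy 1, with the lowest Tnf, was also the healthy library with Lyz2 at 459 CPM. The log2 fold change of Tnf was -0.53 without healthy 1 (adjusted p 0.218) and 0.12 without healthy 3 (adjusted p 0.900). With Lyz2 as a covariate it was 0.82 ± 0.17 (SE), with an unadjusted p of 0.00217 and an adjusted p of 0.645 by edgeR. What lay behind this change was not tested.

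**Figure D3:**
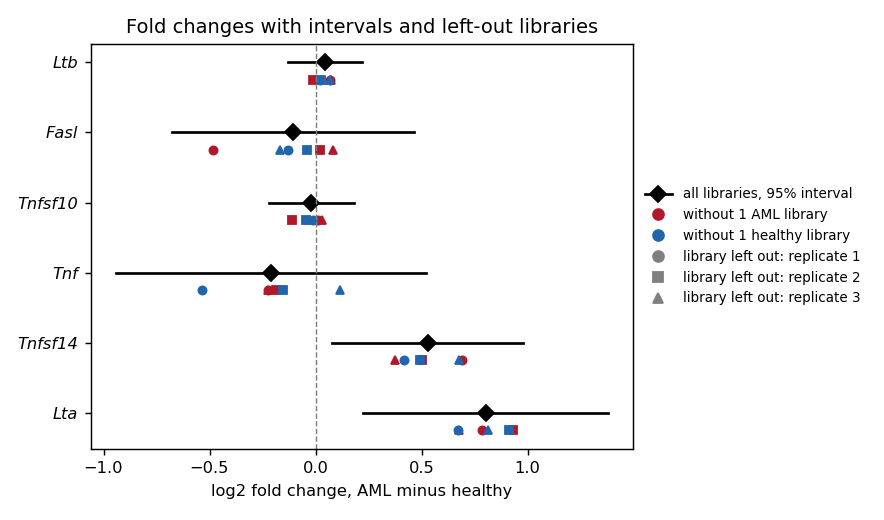
Log2 fold change of each ligand gene, AML minus healthy, with its 95% interval (black), and below it the value without 1 AML library (red) or 1 healthy library (blue); the shape gives the replicate left out. Lta and Tnfsf14 stay above 0 with any single library left out, Fasl reaches -0.48 without AML 1, and Tnf runs from -0.53 to 0.12.

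The neighbours Lta and Tnf did not follow each other. The log2 ratio of Lta to Tnf was -2.72, -2.97 and -2.52 in AML 1 to 3 and -3.04, -3.63 and -4.20 in healthy 1 to 3. The AML ratios were above the healthy ratios in each case, by 0.89 on average. An exact two-sided permutation test gave p = 0.1, the smallest that 3 against 3 libraries allow, so this design could not reach 0.05. Left-out libraries gave a difference of 0.60 (without healthy 3) to 1.18 (without healthy 1). Per kilobase, Tnf was 5.61 ± 0.875 times Lta in AML and 10.9 ± 4.25 times Lta in healthy libraries (SD, n = 3 each).

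Other genes near this cluster included Aif1, a gene of macrophages, with 6.45 ± 2.11 CPM in AML and 2.01 ± 0.934 CPM in healthy libraries (log2 fold change 1.68 ± 0.41, unadjusted p 0.00364 in edgeR). Lst1, of leukocytes, was at 8.83 ± 2.13 CPM in AML and 4.54 ± 3.47 CPM in healthy libraries. Nfkbil1, on the other side of Lta, was at 31.9 ± 2.61 CPM in AML and 34.5 ± 0.430 CPM in healthy libraries.

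In the authors' deposited table, the log2 fold changes were 0.81 for Lta (p 0.0294, adjusted p 0.518), 0.54 for Tnfsf14 (p 0.00742, adjusted p 0.284), 0.05 for Ltb, -0.01 for Tnfsf10, -0.10 for Fasl and -0.20 for Tnf. The authors' deposited table marks 61 of 9769 genes as changed, 38 up and 23 down, and none of the 6 ligands is among them.

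Genes whose level followed that of a ligand over the 6 libraries were ranked by the root mean square difference of their log2 levels, each centred on its mean. For Fasl the closest of 8344 genes were Rabgef1 (0.053) and Arid5a (0.0581), beside a median of 0.350 over all genes. Arid5a, an RNA-binding protein known to stabilise inflammatory messages, was at 227, 124 and 120 CPM in AML 1 to 3 and 157, 183 and 165 CPM in healthy 1 to 3. It was thus high in AML 1 and low in AML 2 and AML 3, as Fasl was. For Tnfsf14 the closest genes were Clec2d (0.0553), a ligand of an NK cell receptor, and Zfp983 (0.0670). For Lta they were Pogz (0.131) and Smug1 (0.150), and for Tnf they were Bcl9l (0.197) and Ankrd26 (0.206), the least close of all. Ltb was followed by Acot8 (0.0114) and Tmem71 (0.0160), and Tnfsf10 by Coa3 (0.0199) and Atp6v1g1 (0.0218), small values for genes that hardly varied. The libraries share their depth and preparation with all genes compared.

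**Figure D4:**
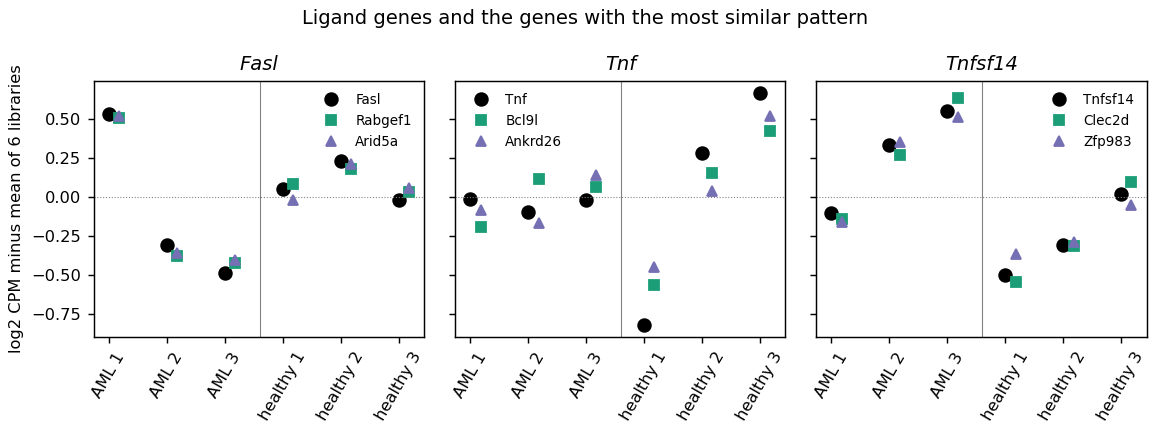
Log2 CPM minus its mean over the 6 libraries for Fasl, Tnf and Tnfsf14 (black circles) and the 2 genes most like each (green squares, violet triangles), AML libraries left of the grey line and healthy libraries right. Fasl is highest in AML 1 and lowest in AML 3, Tnf is lowest in healthy 1, and the genes closest to Tnf follow it less tightly than those closest to Fasl.

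Of 12 other ligands of the superfamily, 9 were tested and none passed the adjusted threshold. Their mean was higher in AML for 4 and lower for 5, with a median log2 fold change of -0.18, and 2 had an unadjusted p under 0.05, as 8.84% of all tested genes did. These were Tnfsf9, the gene of 4-1BB ligand, at 7.34 ± 0.761 CPM in AML and 4.96 ± 0.965 CPM in healthy libraries (log2 fold change 0.57 ± 0.23, unadjusted p 0.0393), and Tnfsf13b, the gene of the B cell survival factor BAFF, at 1.11 ± 0.387 CPM in AML and 0.490 ± 0.133 CPM in healthy libraries (1.17 ± 0.50, unadjusted p 0.0476). Tnfsf8, the gene of CD30 ligand, was the most abundant at 49.7 ± 11.3 CPM in AML and 41.1 ± 9.32 CPM in healthy libraries. Tnfsf18 and Eda had 0 counts in the 6 libraries, where 3 counts per library would be 0.0574 to 0.0642 CPM.

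RNA of most receptors of the 6 ligands was also present, at very different levels. Tnfrsf1b, the receptor for TNF found on lymphocytes, was at 375 ± 76.4 CPM in AML and 347 ± 17.7 CPM in healthy libraries, and Tnfrsf1a at 161 ± 17.9 CPM in AML and 151 ± 13.3 CPM in healthy libraries. Ltbr was at 7.39 ± 3.05 CPM in AML and 5.27 ± 1.84 CPM in healthy libraries. Fas, the receptor of Fas ligand, was at 12.8 ± 1.57 CPM in AML and 10.4 ± 1.10 CPM in healthy libraries. The groups did not overlap for Fas, with AML above healthy, as in 8.2% of all tested genes. Tnfrsf14, for LIGHT, and Tnfrsf10b, the TRAIL receptor, averaged 1.97 ± 0.549 and 1.51 ± 0.644 CPM in AML and 1.48 ± 0.182 and 1.18 ± 0.774 CPM in healthy libraries. Of 9 receptors, 8 were tested, 7 with a higher mean in AML, the median log2 fold change was 0.20, and none had an unadjusted p under 0.05.

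Among 25 signalling adaptors of these receptors none passed the adjusted threshold with all libraries. Their fold change was above 0 for 14 and below 0 for 11, with a median of 0.02, and Rnf31, of the linear ubiquitin ligase (log2 fold change 0.20 ± 0.08, unadjusted p 0.0404), and Cflar, the gene of the caspase inhibitor c-FLIP (0.25 ± 0.10, unadjusted p 0.0439), had the smallest p. Tnfaip3, the gene of the NF-kB inhibitor A20, was the most abundant, with 2956, 742 and 581 CPM in AML 1 to 3 and 2343, 2913 and 2684 CPM in healthy 1 to 3. It was high in AML 1 and low in AML 2 and AML 3, as Fasl was. Its log2 fold change was -0.89 with all libraries (adjusted p 0.641 by edgeR), -2.001 without AML 1 (adjusted p 0.00380) and -2.08 without AML 1 and healthy 1 (adjusted p 0.000152), so that 1 of the 25 passed in either of these fits.

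Of 11 tested genes for shedding or surface release of ligands, 2 had a higher and 9 a lower mean in AML. Adam17, which cuts TNF from the membrane, was at 121 ± 3.77 CPM in AML and 100 ± 4.51 CPM in healthy libraries, without overlap between groups (log2 fold change 0.27 ± 0.07, unadjusted p 0.00552, adjusted p 0.404 by edgeR). AML lay above healthy without overlap in 8.2% of all tested genes. Of 12 genes for the decay and stability of ligand messages, 4 had a higher and 8 a lower mean in AML, with none at an unadjusted p under 0.05. Zfp36l2, of the family that binds AU-rich elements such as those of Tnf shown above, was at 1498, 688 and 677 CPM in AML 1 to 3 and 1379, 1741 and 1490 CPM in healthy 1 to 3 (log2 fold change -0.69 ± 0.30, unadjusted p 0.0513). Without AML 1 it was at -1.17 (adjusted p 0.00592) and Zc3h12a, the gene of the ribonuclease Regnase-1, at -1.08 (adjusted p 0.0117), beside -0.56 for Zc3h12a with all libraries. Without AML 1 and healthy 1 the values were -1.24 for Zfp36l2 (adjusted p 0.000425) and -1.11 for Zc3h12a (adjusted p 0.00347), so that 2 of the 12 passed in either of these fits, both lower in AML. Zfp36, which encodes tristetraprolin, was at 1117 ± 134 CPM in AML and 1219 ± 296 CPM in healthy libraries.

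Of 25 transcription factors known to act on ligand genes, 16 had a higher and 9 a lower mean in AML, and 6 had an unadjusted p under 0.05, as 8.84% of all tested genes did. Irf9 (log2 fold change 0.51 ± 0.09) and Irf7 (0.49 ± 0.11), factors of the interferon response that can act on Tnfsf10, had higher means in AML with unadjusted p of 0.000449 and 0.00213, while Tnfsf10 itself was at -0.02. Egr2 (0.49 ± 0.15) and Egr3 (0.63 ± 0.24), factors that can act on Fasl, also had higher means in AML. Junb, of AP-1, had a lower mean (-0.36 ± 0.10, unadjusted p 0.00646). Tbx21, which encodes T-bet, was at 779 ± 39.6 CPM in AML and 697 ± 61.3 CPM in healthy libraries. None of the 25 passed the adjusted threshold of the quasi-likelihood test with all libraries. Without AML 1 and healthy 1, 3 of them passed, Irf9 at 0.43 (adjusted p 0.0470), Irf7 at 0.55 (adjusted p 0.0484) and Junb at -0.47 (adjusted p 0.0416). With all libraries DESeq2 also called Irf9 (adjusted p 0.000229), Irf7 (adjusted p 0.00566) and Junb (adjusted p 0.0496), and the likelihood ratio test of edgeR called Irf9 (adjusted p 0.00115) and Irf7 (adjusted p 0.0193).

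**Figure D5:**
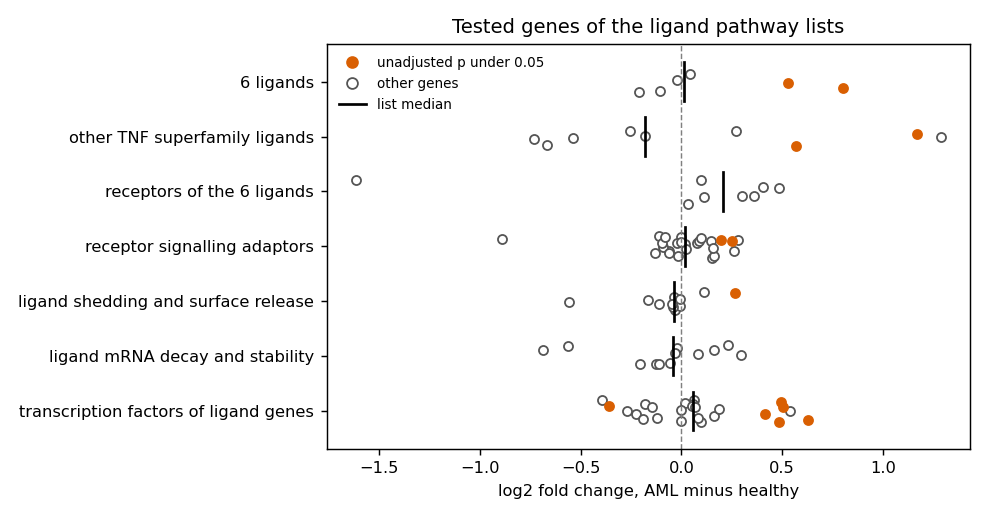
Log2 fold change, AML minus healthy, of the tested genes of each list (points), with the list median (black line); filled orange points have an unadjusted p under 0.05. None passed the adjusted threshold of the quasi-likelihood test with all libraries, and 2 of the 6 ligands, Lta and Tnfsf14, are filled.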

How the data were processed

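RNA of liver ILC1 from 3 AML and 3 healthy libraries was analysed from raw read counts per gene, whole numbers deposited by the authors for 24091 symbols. A second deposited table holds the authors' own log2 fold change, likelihood ratio score, p-value and adjusted p-value for 9769 genes, and a value per library. Of these values 0.0154% are whole, and they match RPKM computed from the deposited counts up to a median factor of 1.01 in each library. They were read as RPKM made by the authors and used only to check the order of levels. Per the labels' protocols, 2 ng of total RNA was amplified with a SMART-Seq kit, for poly(A) RNA without strand information. The submitters' processing notes name STAR 2.6.0, HTSeq 0.6.0, bcl2fastq 2.18.0.12 and also edgeR 3.28.1, with the builds mm10 and hg19, but no roles. How reads shared by genes were counted is not given in the sources used here.

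The deposited counts were fitted in R 4.3.3 with edgeR 4.0.16, using TMM scaling, filterByExpr at a minimum count of 10, the group as sole term, and two-sided quasi-likelihood F tests adjusted after Benjamini and Hochberg over 12469 genes at a threshold of 0.05. CPM were computed from TMM-scaled totals and are given as mean ± SD over 3 libraries. The standard error of a log2 fold change is its size over the square root of F, and its 95% interval uses the t distribution with the moderated degrees of freedom. The fit was checked on simulated counts. Totals ran from 45135093 to 51284691 counts per library, where 3 counts equal 0.0574 to 0.0642 CPM, a limit that covers counting error only. The Lta to Tnf ratio had an exact permutation test in scipy 1.17.1. Alternatives, among them DESeq2 1.42.0 and limma 3.58.1, are in the closing section. Pattern likeness used log2(CPM + 0.5) of genes with a mean of at least 10 CPM.

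Of the symbols, 23349 matched RefSeq names on GRCm38.p6 (mm10), 99.9% of them on the same chromosome and 62.0% with the same start, so positions are printed as 1-based mm10. All 6 ligand genes matched the RefSeq promoter table by symbol. Named are the 6 ligands, any receptor or other ligand, up to 3 genes with the smallest p and the most abundant gene of each further list, genes within 50 kb of a ligand gene, and the 2 genes most like each. Zfp36, Tbx21, Egr2, Egr3 and Klrb1c fall outside this rule and were named after their values were seen. The same holds for Klra4, Pax5, Lyve1, Emcn, Il5, Il17a and Il22, which were named for having no counts in any library. The members, lists and tests were chosen with earlier results of these data known.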

Additional observations from a re-analysis of the deposited data

How the results depend on the processing

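Of 102 alternatives for the 6 fold changes, 92 kept their direction and their side of the adjusted threshold, 1 passed it and 9 reversed sign. The value that passed was that of Fasl without AML 1 and healthy 1, at -0.50 (adjusted p 0.0490). Apart from Tnf with Lyz2 as a covariate, the reversed values lay between -0.012 and 0.12. With that covariate Tnf reversed to 0.82 ± 0.17 (SE), with an unadjusted p of 0.00217 and an adjusted p of 0.645 by edgeR. Without healthy 3, Tnf reversed to 0.12 (adjusted p 0.900). Tnfsf10 reversed to 0.041 on library totals alone, 0.011 without AML 1, 0.030 without AML 3, and 0.025 without AML 1 and healthy 1. Fasl reversed to 0.019 without AML 2 and 0.083 without AML 3, and Ltb to -0.012 without AML 2. The cause was not tested. Leaving out each library in turn gave -0.53 to 0.12 for Tnf, 0.67 to 0.93 for Lta, -0.012 to 0.073 for Ltb, -0.11 to 0.030 for Tnfsf10, -0.48 to 0.083 for Fasl, 0.38 to 0.69 for Tnfsf14 and 0.60 to 1.18 for the log2 ratio of Lta to Tnf. The count of genes past the adjusted threshold was 0 with the quasi-likelihood test, 143 with DESeq2, 100 with the likelihood ratio test of edgeR, 2 on library totals alone, 2 without a filter on low counts, 1 with a stricter filter and 0 to 147 with a library left out, at 147 without AML 1, 89 without healthy 1, and 444 without both. Correlations of same-numbered deviations were 0.13, -0.13 and 0.25, beside -0.33 to 0.20 for other numbers, too few values to settle whether equal replicate numbers pair the libraries. With the replicate number as a block 0 genes passed, and 1462 had an unadjusted p under 0.05, beside 1102 without it. The log2 fold change was then 0.80 for Lta, 0.52 for Tnfsf14, 0.04 for Ltb, -0.03 for Tnfsf10, -0.18 for Fasl and -0.10 for Tnf. For Tnfsf14 the unadjusted p was 0.00228 and the adjusted p 0.320 by edgeR. At this depth Lta, the lowest of the 6, still had 154 to 371 counts per library, so depth limited only genes near 0 such as Tnfsf18 and Eda.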
